A study of Macaca mulatta with 10 samples.

Results

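MRO and GPR55 are a pair of genes whose RNA was low in the testes of vehicle-treated juvenile rhesus macaques (Macaca mulatta) and high after infusion of gonadotropins. They are 2 of the 26813 loci in the deposited count table, and 2 of 13643 loci that each stood for 1 gene symbol. Each symbol had 1 locus in the table. They were chosen by their measured counts, which were much higher after gonadotropin than after vehicle. Their differences from vehicle are therefore given as values without a test. The comparison of 96 h with 48 h of gonadotropin and the ratio between the genes were not used in the choice, and these were tested.

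Whole testes of 10 animals were profiled, each animal giving 1 strand-specific total RNA library from its right testis. The 4 animals of the 96 h group (TP15, TP16, TP17 and TP18, all 14 months old) and the 3 animals of the 48 h group (TP08, TP10 and TP12, aged 22, 14 and 15 months) received pulses of FSH and LH for 96 or 48 h. The 3 vehicle animals (TP07, TP09 and TP11, aged 24, 14 and 15 months) received pulses of vehicle, for a time not given in the sources used here. All 10 animals were labelled as wild type, and the labels name no other allele or agent for any group. Total counts ran from 21824233 to 30375928 per library. No batch of library preparation or sequencing is labelled. Because the highest animal numbers all belong to the 96 h group, a batch by animal number and the longer infusion cannot be told apart. Vehicle animal TP09 alone matched the 96 h group in age.

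FSH acts on Sertoli cells, which nurse the germ cells, and LH acts on Leydig cells, which make testosterone. In the juvenile monkey the pituitary releases little of either hormone, and the infusion supplies them. MRO (maestro) encodes a protein of HEAT-like repeats and was first described in the mouse, where the developing male gonad expresses it more than the female one. GPR55 is a cell surface receptor of the G protein-coupled class. Its best known ligand is lysophosphatidylinositol, a phospholipid with a single acyl chain, and in human cell lines it signals through G12/13 and Gq proteins to RhoA and to calcium release.

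The MRO locus lies on chromosome 18, from 39880672 to 39928234 on the minus strand of rheMac8, and its merged exons cover 6356 bases. It holds 20 deposited transcript models, of which 8 were assembled from reads of these libraries and 12 came from annotation. The models begin at 5 starts, spread over 27.7 kb, and have 6 to 9 exons. They share internal exons toward the 3′ end, so the count per locus does not say which start was used.

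The GPR55 locus lies on chromosome 12, from 113345201 to 113391092 on the minus strand, with 4488 exonic bases. It has 3 models of 2 exons each, 1 of them assembled from reads, and they begin at 2 starts that lie 27.5 kb apart. No other locus overlaps MRO. An unnamed locus on the opposite strand lies within an intron of GPR55, overlaps no exon of it and has no row in the count table.

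**Figure D1:**
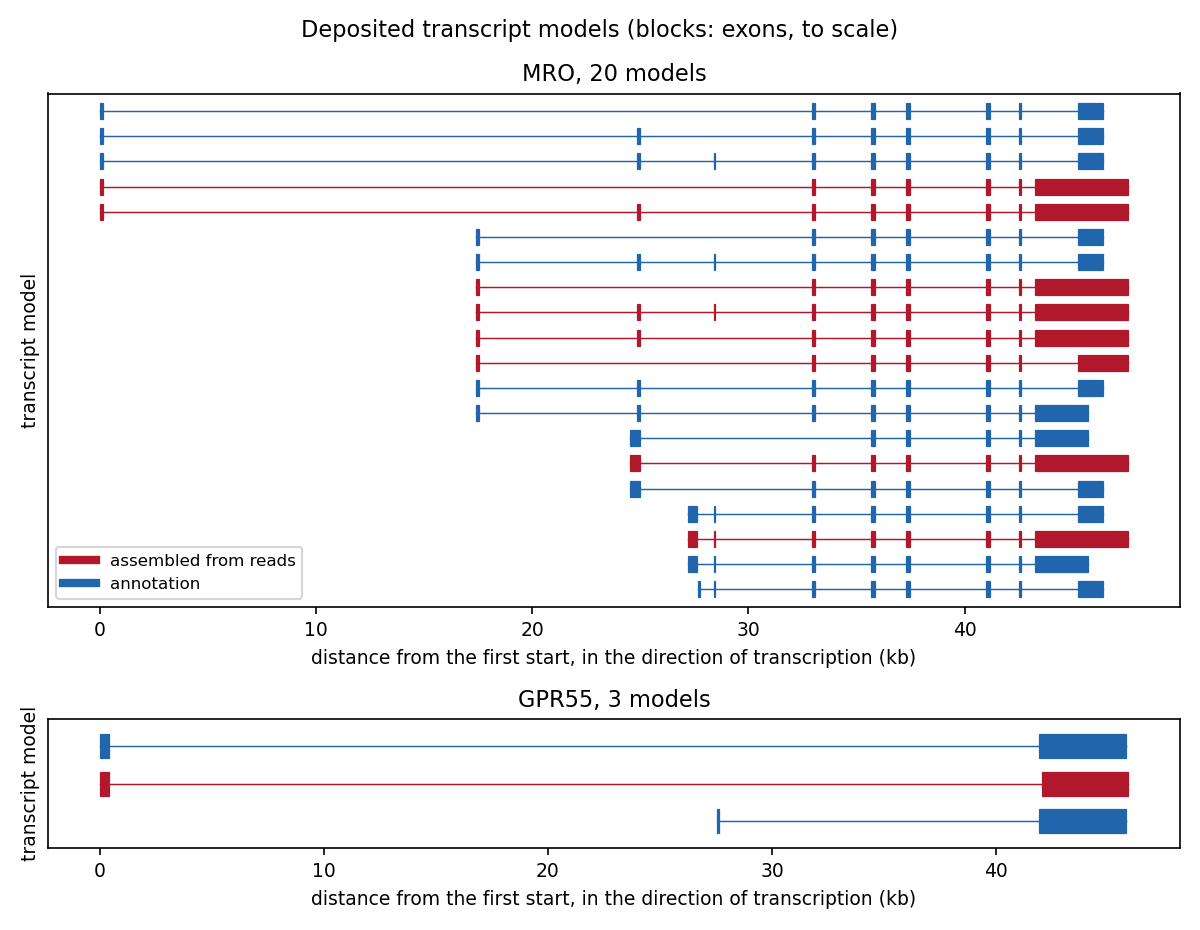
Transcript models of MRO (20, upper panel) and GPR55 (3, lower panel), drawn to scale as distance in kb from the first start in the direction of transcription. Blocks are exons, red models were assembled from reads and blue models come from annotation. The MRO models begin at 5 starts, the last of them 27.7 kb after the first, and converge on shared exons.

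MRO was low but measurable in every vehicle testis and high in every gonadotropin testis. Its level was 58.8, 72.9, 66.1 and 41.9 CPM (counts scaled to library size by the TMM method) in 96 h animals TP15, TP16, TP17 and TP18. It was 46.8, 24.9 and 32.7 CPM in 48 h animals TP08, TP10 and TP12, and 3.40, 5.15 and 4.98 CPM in vehicle animals TP07, TP09 and TP11. Every gonadotropin animal lay above every vehicle animal, whereas the 96 h and 48 h groups overlapped, with TP18 of the 96 h group below TP08 of the 48 h group.

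The group means of MRO were 59.9 ± 13.3 CPM at 96 h (SD, n = 4), 34.8 ± 11.1 CPM at 48 h (n = 3) and 4.51 ± 0.963 CPM in vehicle (n = 3). The ratio of means to vehicle was 13.3 at 96 h and 7.71 at 48 h. On the log2 scale of the edgeR fit, MRO was 3.73 ± 0.28 higher at 96 h than in vehicle (SE) and 2.95 ± 0.28 higher at 48 h than in vehicle. Both comparisons use the same 3 vehicle animals. The lowest 96 h animal stood 8.14-fold above the highest vehicle animal, and the lowest 48 h animal stood 4.83-fold above it.

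GPR55 had few counts in vehicle testes. Its raw counts were 144, 206, 109 and 200 in the 96 h libraries TP15, TP16, TP17 and TP18. They were 316, 77 and 137 in the 48 h libraries TP08, TP10 and TP12, and 10, 18 and 18 in the vehicle libraries TP07, TP09 and TP11. The exact 95% Poisson interval of the lowest of these, the 10 counts of TP07, is 4.80 to 18.4 and covers counting error only. All 10 libraries lay above 3 counts, so no value rests on a count of 0.

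The same counts correspond to 6.97, 7.45, 5.52 and 7.84 CPM in the 96 h animals. They correspond to 10.7, 2.78 and 4.43 CPM in the 48 h animals and to 0.330, 0.719 and 0.582 CPM in the vehicle animals. Again no gonadotropin animal overlapped a vehicle animal, while the 48 h animals spread on both sides of the whole 96 h group. TP08 was the highest of all 10 animals for GPR55, and TP10 was the lowest of the 7 gonadotropin animals.

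GPR55 averaged 6.94 ± 1.02 CPM at 96 h (SD, n = 4), 5.96 ± 4.15 CPM at 48 h (n = 3) and 0.543 ± 0.197 CPM in vehicle (n = 3). The ratio of means to vehicle was 12.8 at 96 h and 11.0 at 48 h. The fitted log2 difference from vehicle was 3.68 ± 0.48 at 96 h and 3.46 ± 0.49 at 48 h (SE). The 48 h value depended on TP08, since without that animal it was 2.73. Without both animals over 20 months (TP08 and the vehicle animal TP07) it was 2.47.

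**Figure D2:**
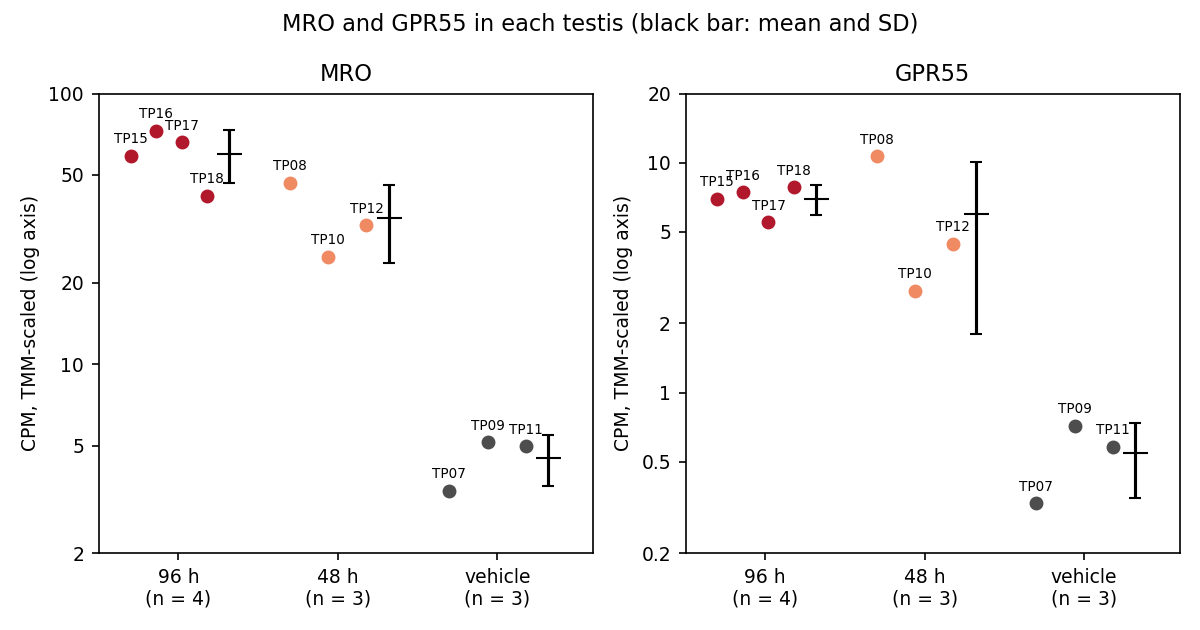
Level of MRO (left) and GPR55 (right) in each testis, in TMM-scaled CPM on a log axis, for the 96 h (n = 4), 48 h (n = 3) and vehicle (n = 3) groups. Points are animals, and black bars are the mean and SD. Vehicle animals lie between 3.40 and 5.15 CPM for MRO and between 0.330 and 0.719 CPM for GPR55, below all gonadotropin animals.

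Among all 13643 symbols ranked by fitted log2 difference from vehicle, MRO was number 6 at 96 h and number 12 at 48 h. GPR55 was number 7 at 96 h and number 8 at 48 h. A lack of overlap with vehicle is common in groups of this size: 15.9% of all loci lay wholly above vehicle at 96 h and 18.1% at 48 h. Because the genes were picked for this contrast, nothing is read from their place in it. The edgeR test called 17.5% of loci at 96 h against vehicle (10.6% higher, 6.89% lower) and 12.2% at 48 h (8.53% higher, 3.67% lower; quasi-likelihood test, Benjamini-Hochberg adjusted p under 0.05).

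In the authors' deposited table the log2 fold change against vehicle was 3.73 at 96 h and 2.95 at 48 h for MRO. The authors' deposited table gives 3.68 at 96 h and 3.45 at 48 h for GPR55.

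The 96 h and 48 h groups were then set against each other, to ask whether the level still moved after the first 48 h. Neither gene passed the edgeR test, against a background of 1.07% of all loci called. MRO was 0.78 ± 0.24 higher on the log2 scale at 96 h than at 48 h (SE), with 3 of the 4 animals of the 96 h group above all 48 h animals. The unadjusted p was 0.00864 and the edgeR adjusted p was 0.133, and over the alternatives run the adjusted p ran from 0.0376 to 0.49. DESeq2 gave the lowest of these (log2 fold change 0.77, adjusted p = 0.0376) and alone passed the threshold of 0.05. The log2 difference of MRO was 1.06 without TP08, its highest 48 h animal, and 0.59 without TP10, its lowest. The authors' deposited table gives an FDR of 0.0512 for MRO in this comparison.

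GPR55 was 0.22 ± 0.40 higher at 96 h than at 48 h on the log2 scale (SE, edgeR adjusted p = 0.775, unadjusted p = 0.586). The adjusted p ran from 0.29 to 0.974 over the alternatives, exactTest and DESeq2 among them. The 48 h animals decided this value. It was 0.94 without TP08, the highest animal, and -0.12 without TP10, the lowest. The authors' deposited table gives an FDR of 0.8465.

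The spread among animals differed between the genes most at 48 h, where the coefficient of variation was 31.9% for MRO and 69.8% for GPR55. At 96 h it was 22.2% for MRO and 14.6% for GPR55. In vehicle it was 21.4% for MRO and 36.2% for GPR55, where the low counts of GPR55 add counting error.

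Compared per kb of exon, MRO was the more abundant transcript in every group. MRO reached 9.43 CPM per kb at 96 h, 5.47 at 48 h and 0.709 in vehicle. GPR55 reached 1.55 CPM per kb at 96 h, 1.33 at 48 h and 0.121 in vehicle. The level of GPR55 at 96 h was thus above the vehicle level of MRO on the scale per kb.

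The ratio of MRO to GPR55 counts within a library needs no scaling between libraries. The log2 ratio was 3.08, 3.29, 3.58 and 2.42 in 96 h animals TP15, TP16, TP17 and TP18. It was 2.14, 3.16 and 2.88 in 48 h animals TP08, TP10 and TP12, and 3.36, 2.84 and 3.10 in vehicle animals TP07, TP09 and TP11. The 3 groups overlapped, and the 2 lowest ratios belonged to TP08 and TP18, the animals with the highest GPR55 of their groups. TP18 also had the lowest MRO of the 96 h group (41.9 CPM), whereas TP08 had the highest MRO of the 48 h group (46.8 CPM).

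The log2 ratio averaged 3.09 ± 0.49 at 96 h (SD, n = 4), 2.73 ± 0.53 at 48 h (n = 3) and 3.10 ± 0.26 in vehicle (n = 3). The 96 h mean exceeded the 48 h mean by 0.37, which an exact two-sided permutation test over 35 regroupings did not separate from 0 (p = 0.4, the smallest p this design allows being 0.0286). The difference was 0.07 without TP08. No test was made against vehicle.

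Age differed between animals, and the 48 h and vehicle groups each held 1 animal of 14 months, 1 of 15 months and 1 over 20 months. Within the pair over 20 months, TP08 at 48 h exceeded vehicle animal TP07 by 13.8-fold for MRO and by 32.3-fold for GPR55. Within the pair of 15 months, TP12 at 48 h exceeded vehicle animal TP11 by 6.56-fold for MRO and by 7.62-fold for GPR55. Within the pair of 14 months, TP10 at 48 h exceeded vehicle animal TP09 by 4.83-fold for MRO and by 3.87-fold for GPR55.

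The order of the pairs was the same for both genes, with the oldest pair farthest apart. In the oldest pair both ends stood out: TP08 was the highest 48 h animal and TP07 the lowest vehicle animal for both genes. With 1 animal per age and group, age and animal cannot be told apart.

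At 14 months all 3 groups can be compared without a difference in age, though with 1 animal each at 48 h and in vehicle. The 4 animals of the 96 h group exceeded the 14-month vehicle animal TP09 by 8.14-fold to 14.2-fold for MRO and by 7.68-fold to 10.9-fold for GPR55. They exceeded the 14-month animal TP10 of the 48 h group by 1.68-fold to 2.93-fold for MRO and by 1.99-fold to 2.82-fold for GPR55.

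The genes with the most similar profile over the 10 libraries were found by the root mean square (RMS) difference between mean-centred log2 CPM profiles, over 13388 symbols with a mean of at least 1 CPM. A value near 0 means that a gene rose and fell by the same log2 steps from animal to animal. The difference between vehicle and gonadotropin animals dominates this measure, so the genes it finds share that difference by construction. GPR55 and MRO were close to each other, at an RMS difference of 0.40. Both were chosen for that same difference from vehicle, so their closeness follows in part from the choice and is only a description. MRO was the nearest of all symbols to GPR55, and GPR55 was the second nearest to MRO. Ranked by Pearson correlation instead, MRO was number 7 for GPR55 and GPR55 was number 21 for MRO. Of the 10 genes nearest by RMS difference, that ranking kept 1 for MRO and 2 for GPR55. The genes named below therefore depend on the measure used. The median RMS difference over all symbols was 1.59 to MRO and 1.61 to GPR55.

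RASD1, a small Ras-related G protein induced by glucocorticoids, was the nearest gene to MRO, at 0.30. RASD1 had 54.7, 46.8, 38.4 and 33.2 CPM in 96 h animals TP15, TP16, TP17 and TP18. It had 30.8, 30.4 and 29.8 CPM in 48 h animals TP08, TP10 and TP12, and 2.31, 3.63 and 4.26 CPM in vehicle animals TP07, TP09 and TP11. All 96 h animals lay above the 48 h animals for RASD1, and its 48 h animals were nearly level where those of MRO and GPR55 spread apart.

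Genes in both lists of 10 nearest genes included RASD1, TMEM119, CLEC12B, CYP17A1, DEFB119 and PLAC9. RASD1 stood 0.49 from GPR55. CYP17A1, an enzyme that Leydig cells need to make androgens, stood 0.50 from MRO and 0.54 from GPR55. It averaged 206 ± 32 CPM at 96 h, 229 ± 39.8 CPM at 48 h and 20.4 ± 4.79 CPM in vehicle. CLEC12B, an inhibitory receptor of the C-type lectin family, averaged 24.2 ± 0.571 CPM at 96 h, 11.8 ± 4.94 CPM at 48 h and 2.13 ± 1.35 CPM in vehicle. DEFB119, a beta-defensin, averaged 11.2 ± 0.711 CPM at 96 h, 8.90 ± 2.03 CPM at 48 h and 0.924 ± 0.671 CPM in vehicle.

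TMEM119, a membrane protein known as a marker of microglia in the brain, stood 0.48 from MRO and 0.68 from GPR55. It averaged 16.5 ± 7.15 CPM at 96 h, 13.1 ± 2.1 CPM at 48 h and 2.21 ± 0.507 CPM in vehicle. PLAC9 stood 0.53 from MRO and 0.70 from GPR55.

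TK1 and KIAA0101 were among the nearest genes to MRO alone, at 0.48 and 0.51. TK1 makes thymidine monophosphate for DNA synthesis, and KIAA0101 encodes a factor that binds the DNA polymerase clamp. TK1 averaged 20.4 ± 1.44 CPM at 96 h, 8.99 ± 2.04 CPM at 48 h and 2.05 ± 1.01 CPM in vehicle. Its 96 h animals all lay above its 48 h animals, whereas those of MRO overlapped.

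DEFB123 and LRP8 were among the nearest genes to GPR55 alone, at 0.59 and 0.63. DEFB123 encodes another beta-defensin, and LRP8 is a receptor for apolipoprotein E and reelin. DEFB123 averaged 8.90 ± 3.71 CPM at 96 h, 7.67 ± 1.10 CPM at 48 h and 0.521 ± 0.276 CPM in vehicle. LRP8 averaged 78.4 ± 41.2 CPM at 96 h, 80.4 ± 37.0 CPM at 48 h and 12.1 ± 1.65 CPM in vehicle. TP16 and TP08 were its highest animals. No test is given for these genes, since they were found by their likeness.

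**Figure D3:**
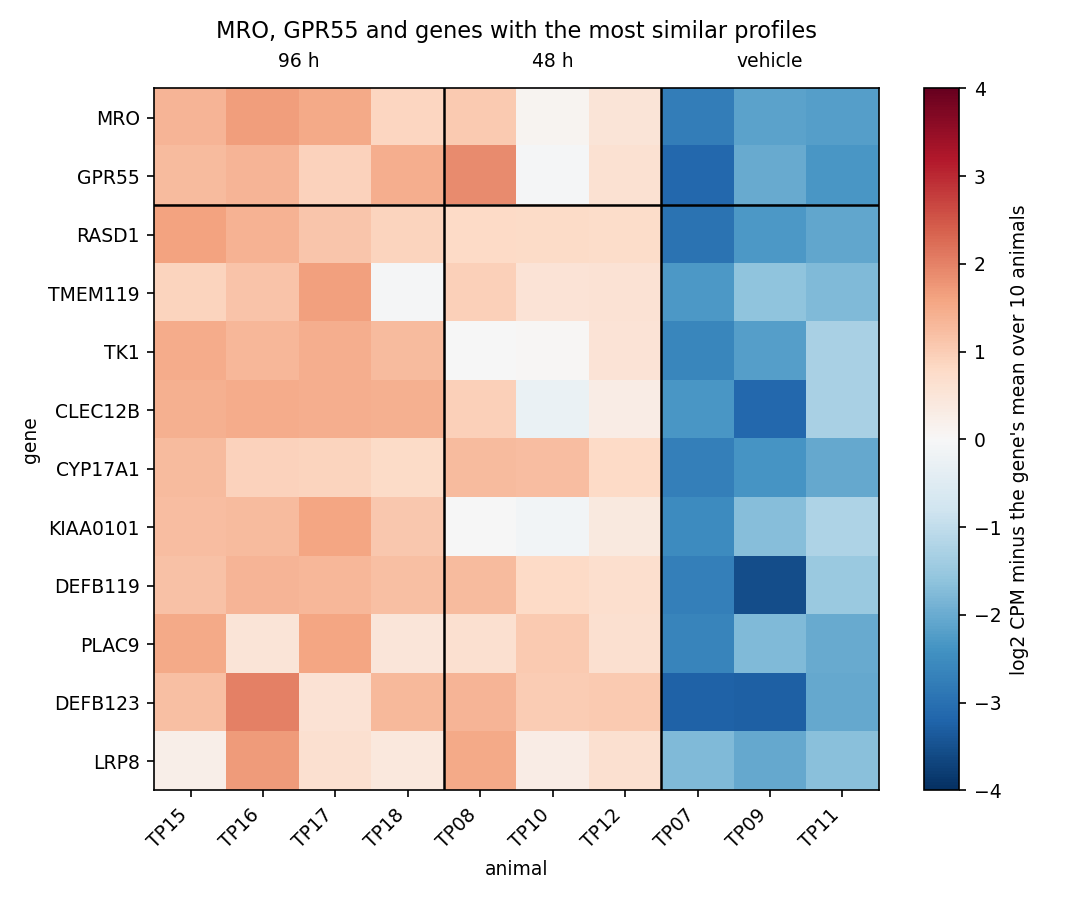
Log2 CPM of MRO, GPR55 and genes with the most similar profiles, each minus its own mean over the 10 animals (colour scale), with the 96 h animals on the left, the 48 h animals in the middle and the vehicle animals on the right. Blue marks levels below a gene's mean. All genes are blue in the 3 vehicle animals, and among the 48 h animals MRO and GPR55 are highest in TP08.

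No relative of MRO passed the test. Of 8 other genes of the maestro family (the MROH genes, which share its HEAT-like repeats) 5 were measured, and none was called at 96 h or 48 h by edgeR, exactTest or DESeq2. At an unadjusted p under 0.05, 1 of the 5 was lower at 96 h (MROH2B) and 0 differed at 48 h. Of all symbols, 14.4% were lower at that unadjusted threshold at 96 h and 9.01% at 48 h. After adjustment, 17.3% of symbols were called higher and 6.72% lower at 96 h, and 14.6% higher and 3.25% lower at 48 h. MROH1, the most abundant relative per kb, averaged 21.2 ± 2.01 CPM at 96 h, 20.5 ± 2.0 CPM at 48 h and 20.3 ± 2.03 CPM in vehicle. The fitted log2 differences of the 5 genes lay between -0.77 and 0.62 at 96 h and between -0.48 and 0.02 at 48 h. Their medians were -0.40 and -0.04, beside 0.08 over all symbols at both times. Under upper-quartile scaling 1 of them was called lower at 96 h. MROH5, MROH6 and MROH7 were not analysed here.

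The per-kb level of MRO in vehicle testes was 0.709, below the 3.62 of MROH1 and the 3.10 of MROH8. At 96 h the per-kb level of MRO, 9.43, was above the 3.79 of MROH1 and the 2.34 of MROH8.

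Of 7 other receptors of the lysophosphatidylinositol and cannabinoid system CNR1 and TRPV2 were measured, and neither was called at 96 h or 48 h by edgeR, exactTest or DESeq2. At an unadjusted p under 0.05, 1 was lower at 96 h (CNR1) and 0 differed at 48 h. CNR1, the main cannabinoid receptor of the brain, had 6.29, 4.49, 2.28 and 5.33 CPM in 96 h animals TP15, TP16, TP17 and TP18. It had 6.04, 4.69 and 6.12 CPM in 48 h animals TP08, TP10 and TP12, and 9.64, 7.35 and 6.49 CPM in vehicle animals TP07, TP09 and TP11. Every gonadotropin animal lay below every vehicle animal for CNR1. The gap to the lowest vehicle animal, TP11, was small for TP15 (6.29 against 6.49 CPM) and larger for TP17 (2.28 CPM). The share of all loci lying wholly below vehicle is not given here, and nothing is read from this lack of overlap. The log2 difference of CNR1 from vehicle was -0.77 ± 0.30 at 96 h (SE, edgeR adjusted p = 0.0964) and -0.48 ± 0.32 at 48 h (adjusted p = 0.356). GPR18, GPR35, GPR119, CNR2 and TRPV1 were not analysed here.

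**Figure D4:**
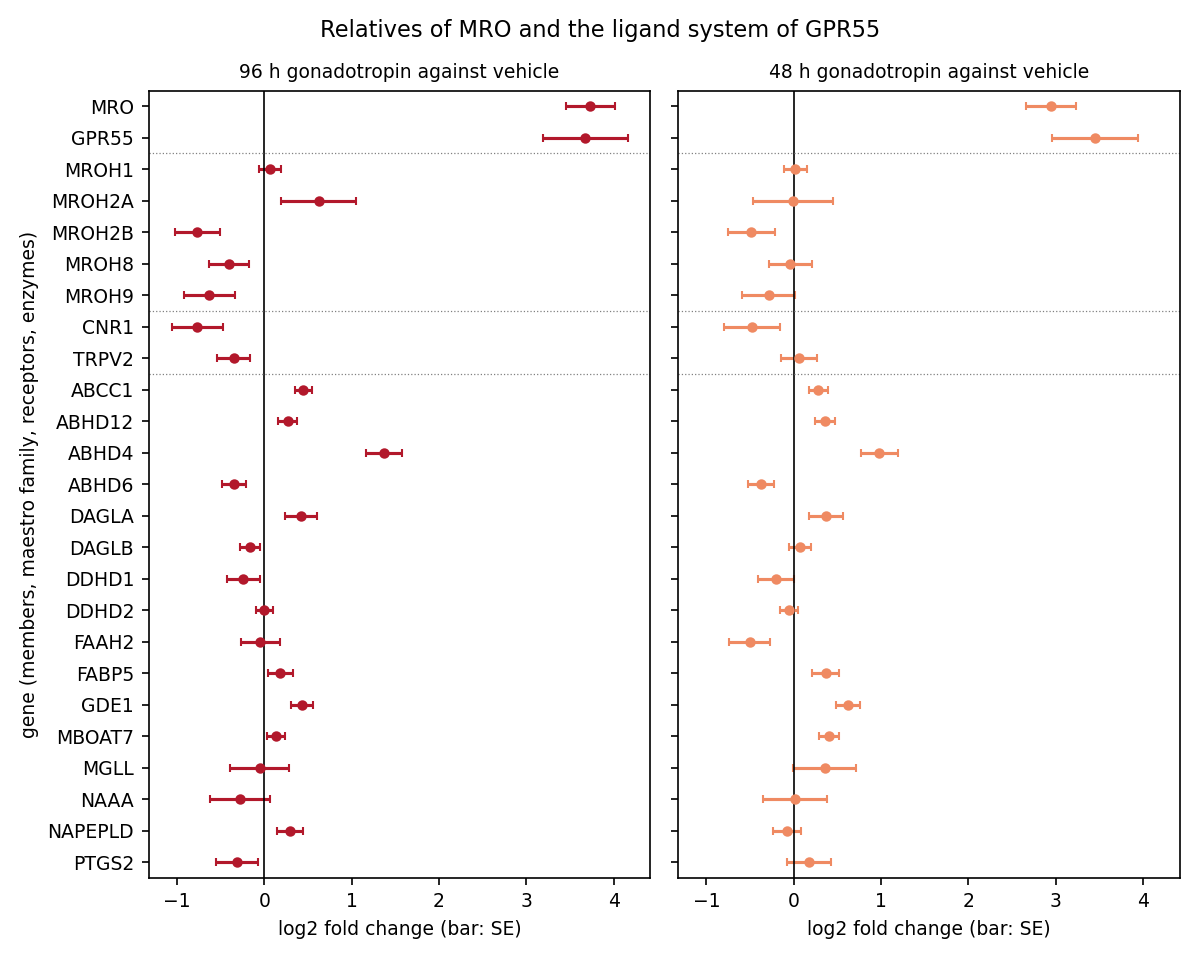
Fitted log2 fold change against vehicle at 96 h (left) and 48 h (right) with SE bars, for MRO and GPR55, the 5 measured maestro family genes, CNR1 and TRPV2, and the 16 measured enzymes and transporters of the GPR55 ligands. MRO and GPR55 lie between 2.95 and 3.73, and of the other genes ABHD4 lies highest in both panels, at 1.37 (96 h) and 0.98 (48 h).

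Of 17 enzymes and transporters that make, break down or export lysophosphatidylinositol and endocannabinoids, 16 were measured, and 3 rose at each time with none falling. These shares are near the 17.3% (96 h) and 14.6% (48 h) of all symbols called higher, so they say nothing particular about these genes. Falls called by exactTest or DESeq2 also numbered 0, and 1 gene was lower at an unadjusted p under 0.05 at each time. At 96 h 1 fall was called without TP16 and 1 under upper-quartile scaling. The median log2 difference of the 16 was 0.07 at 96 h and 0.23 at 48 h. ABHD4, a hydrolase in the synthesis of N-acylethanolamines, had the largest rise. It had 44.5, 55.4, 60.3 and 58.1 CPM in 96 h animals TP15, TP16, TP17 and TP18. It had 59.3, 32.8 and 32.8 CPM in 48 h animals TP08, TP10 and TP12, and 20.1, 22.5 and 20.6 CPM in vehicle animals TP07, TP09 and TP11. As for MRO and GPR55, TP08 was the highest 48 h animal for ABHD4. Its log2 difference from vehicle was 1.37 ± 0.21 at 96 h (SE, edgeR adjusted p = 0.00209) and 0.98 ± 0.22 at 48 h (adjusted p = 0.0143). At 96 h all 4 animals, and at 48 h all 3, lay above all vehicle animals. The call at 96 h held under all alternatives run, with an adjusted p of at most 0.0135. The call at 48 h was lost without TP11 (adjusted p = 0.0519) and without both animals over 20 months (0.0728).

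GDE1, a phosphodiesterase that acts after ABHD4, rose at both times, by 0.43 ± 0.13 at 96 h (SE, edgeR adjusted p = 0.039) and by 0.62 ± 0.14 at 48 h (adjusted p = 0.0135). ABCC1, a transporter that exports lysophosphatidylinositol from human tumour cells, rose by 0.44 ± 0.10 at 96 h (adjusted p = 0.0131). MBOAT7, which joins lysophosphatidylinositol to arachidonic acid, rose by 0.40 ± 0.11 at 48 h (adjusted p = 0.0395). All gonadotropin animals of these comparisons lay above all vehicle animals. The call of GDE1 was lost at 96 h without any 1 of TP07, TP09, TP11, TP16, TP17 and TP18 (adjusted p 0.0588 to 0.13) and at 48 h without TP08 or TP11 (0.0512 and 0.0547). That of MBOAT7 was lost without any 1 of TP07, TP08, TP09, TP11, TP12 and TP18 (0.0518 to 0.124). That of ABCC1 was lost without TP07 (0.06) or TP11 (0.0565). Upper-quartile scaling ended the calls of GDE1 at 96 h (0.132) and MBOAT7 at 48 h (0.132), and a mean count of at least 50 ended that of MBOAT7 (0.0551). Age class as a block ended those of GDE1 (0.0815) and ABCC1 (0.118) at 96 h and MBOAT7 at 48 h (0.0627). Without both animals over 20 months the calls of GDE1 at 96 h (0.0547) and 48 h (0.0977), ABCC1 (0.0799) and MBOAT7 (0.252) were lost. The 3 rises at 96 h were 1 without TP07, without TP11, without both animals over 20 months or with age class as a block. The 3 rises at 48 h were 1 without TP08, 0 without TP11 or without both animals over 20 months, and 5 with DESeq2. DDHD1, a phospholipase that makes lysophosphatidylinositol, averaged 175 ± 46.7 CPM at 96 h, 179 ± 25.5 CPM at 48 h and 206 ± 33.8 CPM in vehicle. It was not called.

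All 20 listed genes of the G12/13 and Gq pathways were measured. At 96 h 4 of them rose and none fell, and at 48 h 2 rose and 1 fell. Of all symbols, 17.3% were called higher at 96 h and 14.6% at 48 h, and nothing particular to the list is read from its counts. At 96 h exactTest and DESeq2 each called 1 fall, 1 was called without TP15, and 2 genes were lower at an unadjusted p under 0.05. The median log2 difference was 0.15 at 96 h and 0.01 at 48 h. RHOA, the small G protein on which the G12/13 branch acts, averaged 319 ± 55.6 CPM at 96 h, 344 ± 18.5 CPM at 48 h and 229 ± 7.12 CPM in vehicle. Its log2 difference from vehicle was 0.48 ± 0.12 at 96 h (SE, edgeR adjusted p = 0.0234) and 0.59 ± 0.13 at 48 h (adjusted p = 0.0144). GNA11, an alpha subunit of the Gq class, rose by 0.53 ± 0.09 at 96 h (adjusted p = 0.00273). RGS16, which speeds the switching off of Gi and Gq proteins, rose by 1.43 ± 0.26 at 48 h (adjusted p = 0.00622), and PLCB1, a phospholipase C that Gq activates, fell by 0.94 ± 0.20 at 48 h (adjusted p = 0.0138).

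All gonadotropin animals lay beyond all vehicle animals for these 4 genes in the comparisons named. The call of RHOA was lost at 96 h without TP07, TP09 or TP11 (adjusted p 0.064 to 0.0737) and at 48 h without TP09 (0.0576), and under upper-quartile scaling it was lost at 96 h (0.0569). It was also lost at 96 h with age as a covariate (0.0523), with age class as a block (0.15) and without both animals over 20 months (0.0864), an omission that ended the 48 h call too (0.0992). The 4 rises at 96 h were 2 without TP07 or TP17, 1 without TP11, 2 without both animals over 20 months, 2 with age as a covariate or with only the groups compared, and 1 with age class as a block. Upper-quartile scaling also left 1 rise, with 2 genes falling. With a mean count of at least 50, 2 fell. The single fall at 48 h, PLCB1, was lost without TP08 (adjusted p = 0.0653), without TP09 (0.0525) and without both animals over 20 months (0.129). The 2 rises at 48 h were 1 without both animals over 20 months, and 5 under RLE scaling or with DESeq2.

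The tissue is a mixture, and in a bulk sample a change in the number of cells of a type cannot be told apart from a change in RNA per cell. Marker lists of the testis cell types were therefore read in the same libraries. No measured marker of any list was at 0 counts in any animal. The Leydig list, like MRO and GPR55, was higher in gonadotropin than in vehicle animals. Of its 17 measured genes 11 rose at 96 h and 14 rose at 48 h, with none falling. Over all symbols, 17.3% were called higher at 96 h and 14.6% at 48 h. The median log2 difference of the list was 1.14 at 96 h and 1.41 at 48 h. Without both animals over 20 months 8 rose at 96 h and 9 at 48 h, and with age class as a block 7 rose at 96 h. CYP17A1, found above by its likeness, is among the genes counted. The summed level of the list was 2081 to 2546 CPM at 96 h, 2682 to 3248 CPM at 48 h and 728 to 905 CPM in vehicle.

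The fitted log2 difference of CYP17A1 from vehicle was 3.33 ± 0.20 at 96 h and 3.49 ± 0.21 at 48 h (SE), given without a test because its likeness to MRO and GPR55 rests on that difference. CYP11A1, which makes pregnenolone from cholesterol, rose by 3.14 ± 0.29 at 96 h (SE, edgeR adjusted p = 0.000297) and by 3.81 ± 0.31 at 48 h (adjusted p = 0.000367). For both enzymes every gonadotropin animal lay above every vehicle animal. The summed Leydig level was lower in all 96 h animals than in all 48 h animals. Between these groups neither MRO nor GPR55 was called (edgeR adjusted p = 0.133 and 0.775), and both overlapped. Among the 48 h animals TP10 and TP08 had close summed Leydig levels, 3248 and 3229 CPM, and no order is read from them. TP08 exceeded TP10 in both MRO and GPR55. The part of the Leydig list in the level of MRO and GPR55 was not tested.

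Of 14 measured macrophage genes 4 rose at 96 h and 0 at 48 h, and the summed level was 250.3 to 492 CPM at 96 h, 194 to 332 CPM at 48 h and 119 to 265 CPM in vehicle, so the groups overlapped. Over all symbols, 17.3% were called higher at 96 h and 14.6% at 48 h. The log2 differences of the 14 genes lay between 0.59 and 1.49 at 96 h, with a median of 0.99. At an unadjusted p under 0.05, 11 of the 14 were higher at 96 h. That threshold held for 27.6% of all symbols at 96 h and 25.3% at 48 h. The 4 macrophage rises at 96 h were 0 without TP07, TP11 or TP17 and without both animals over 20 months, 1 without TP09 or TP15, and 8 without TP16. They were 7 with exactTest, 10 with DESeq2, 1 with age as a covariate and 0 with age class as a block. At 48 h exactTest called 1, DESeq2 called 2, each age adjustment called 1, and 2 were higher at an unadjusted p under 0.05. Of 7 measured lymphocyte genes, 1 rose at 96 h (PTPRC, the general marker of white blood cells) and 0 at 48 h. DESeq2 called 2 higher at 96 h. At 48 h exactTest and DESeq2 also called 0, and 0 were higher at an unadjusted p under 0.05. The median log2 difference of the list was -0.38 at 96 h and -0.20 at 48 h. Summed levels were 88.3 to 108 CPM at 96 h, 67.5 to 82.2 CPM at 48 h and 47.3 to 75.9 CPM in vehicle. PTPRC made up most of that sum, with 68.7 to 75.4 CPM at 96 h and 36.2 to 53.8 CPM in vehicle. The summed level therefore does not show a rise of the list as a whole.

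Of 8 measured genes of peritubular myoid and smooth muscle cells, 5 rose at 96 h and 4 at 48 h. Over all symbols, 17.3% were called higher at 96 h and 14.6% at 48 h. The summed level of the list was 895 to 1688 CPM at 96 h, 994 to 1373 CPM at 48 h and 653 to 779 CPM in vehicle, with no overlap between gonadotropin and vehicle animals. Taken singly, 15.9% of all loci lay wholly above vehicle at 96 h and 18.1% at 48 h. The 5 rises were 1 without TP07, without both animals over 20 months or with age class as a block, 2 without TP11, and 3 without TP15 or TP17 or with age as a covariate. The 4 rises were 2 without any 1 of the 48 h or vehicle animals, without both animals over 20 months and under upper-quartile scaling. ACTA2, smooth muscle actin, rose by 2.37 ± 0.36 at 96 h (SE, edgeR adjusted p = 0.00282) and by 2.77 ± 0.37 at 48 h (adjusted p = 0.00216).

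Of 19 measured Sertoli genes 5 rose and 2 fell at 96 h, and 5 rose and none fell at 48 h, when DESeq2 called 1 fall, exactTest 0, and 2 were lower at an unadjusted p under 0.05. Over all symbols, 17.3% were called higher and 6.72% lower at 96 h, and 14.6% higher and 3.25% lower at 48 h. At the unadjusted threshold 9.01% of symbols were lower at 48 h. Nothing particular to the Sertoli list is read from its counts. Its summed level was 3342 to 3818 CPM at 96 h, 3482 to 4194 CPM at 48 h and 3280 to 3862 CPM in vehicle. The rises at 96 h were 1 without TP07, 2 without TP09, TP11, TP12 or TP16, and 3 without TP15, TP18 or both animals over 20 months. They were 3 with either age adjustment, with only the groups compared or with exactTest, and 2 under upper-quartile scaling or with a mean count of at least 50. The falls at 96 h were 0 or 1 without any 1 animal, 1 under RLE scaling or with exactTest, and 0 with either age adjustment, with only the groups compared or without both animals over 20 months. The rises at 48 h were 3 without TP07 or TP09 and 1 without both animals over 20 months.

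Of 8 measured endothelial genes 1 fell at 96 h, a call lost without TP07, TP11 or both animals over 20 months and with age class as a block, and none was called at 48 h by edgeR, exactTest or DESeq2, nor at an unadjusted p under 0.05. Of 13 measured germ cell genes 8 fell at 96 h and 2 at 48 h. Over all symbols, 6.72% were called lower at 96 h and 3.25% at 48 h, and nothing is read from the single endothelial fall. The summed germ cell level was 303 to 440.2 CPM at 96 h, 347 to 466 CPM at 48 h and 566 to 657 CPM in vehicle. The 8 germ cell falls were 4 without TP07 or TP11, 2 without both animals over 20 months, 5 with age as a covariate and 1 with age class as a block. The 2 falls at 48 h were 1 without both animals over 20 months. The endothelial sum was 70.1 to 144 CPM at 96 h, 87.9 to 159 CPM at 48 h and 90.2 to 125 CPM in vehicle. The part of these lists in the level of MRO and GPR55 was not tested.

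**Figure D5:**
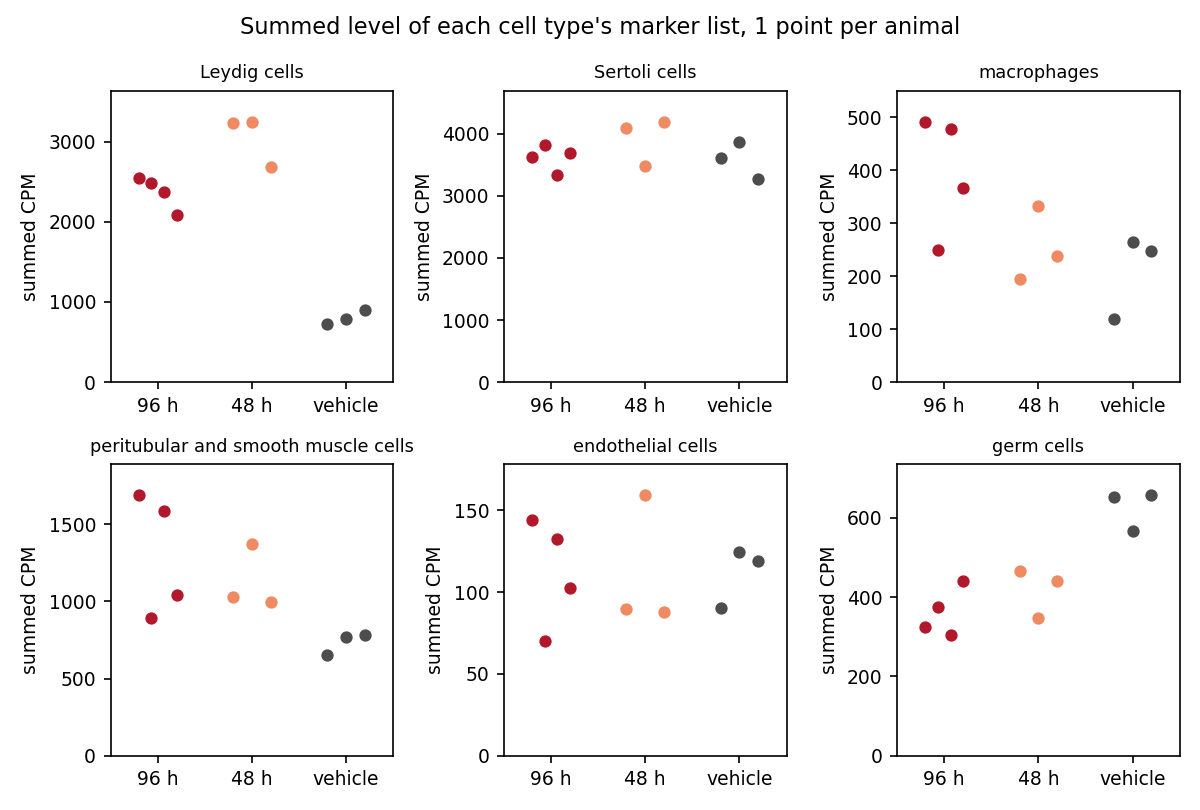
Summed CPM of the measured genes of 6 marker lists, with 1 point per animal, for the 96 h, 48 h and vehicle groups. The Leydig sum lies between 2081 and 3248 CPM in gonadotropin animals and between 728 and 905 CPM in vehicle animals, and the germ cell sum lies below its vehicle range in all gonadotropin animals.

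None of the genes next to MRO and GPR55 differed from vehicle by more than 1.41 on the log2 scale. The 3 nearest loci with a symbol on each side of MRO were CXXC1, SKA1 and MAPK4 toward lower coordinates and ME2, ELAC1 and SMAD4 toward higher ones. Their log2 differences from vehicle lay between 0.07 and 1.41 at 96 h and between -0.11 and 1.24 at 48 h. ME2, the mitochondrial malic enzyme, starts 34.9 kb from MRO. It averaged 125 ± 12 CPM at 96 h, 119 ± 23.3 CPM at 48 h and 85.3 ± 3.13 CPM in vehicle. ME2 rose by 0.56 ± 0.13 at 96 h (SE, edgeR adjusted p = 0.014) and by 0.48 ± 0.13 at 48 h (adjusted p = 0.0378). The call at 96 h was lost without TP11 (adjusted p = 0.0577), and that at 48 h without any 1 of TP07, TP08, TP09, TP11 and TP12 (0.0766 to 0.143) and under upper-quartile scaling (0.108). Without both animals over 20 months it was also lost (0.214).

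SKA1, a spindle protein of dividing cells, rose by 1.41 ± 0.19 at 96 h (SE, edgeR adjusted p = 0.00117) and was not called at 48 h (0.58 ± 0.20, adjusted p = 0.0844). MAPK4, an atypical MAP kinase 60.7 kb from MRO, averaged 20.5 ± 6.05 CPM at 96 h, 30.1 ± 3.54 CPM at 48 h and 12.7 ± 6.61 CPM in vehicle. It was not called (log2 difference 1.24 ± 0.36 at 48 h, adjusted p = 0.0513). It was called at 48 h without TP07 (adjusted p = 0.0193) or TP16 (0.0384), with exactTest (0.00698), with DESeq2 (0.00356), under RLE scaling (0.047), with a mean count of at least 50 (0.0472), and with age as a covariate (0.029) or age class as a block (0.0232).

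The nearest loci around GPR55 were SP100, CAB39 and ITM2C toward lower coordinates and PSMD1, HTR2B and ARMC9 toward higher ones. Their log2 differences from vehicle lay between -0.42 and 0.43 at 96 h and between -0.20 and 0.64 at 48 h. ITM2C, a membrane protein 27.8 kb from GPR55, averaged 103 ± 19.1 CPM at 96 h, 102 ± 13.5 CPM at 48 h and 81.0 ± 12.2 CPM in vehicle. It was not called. PSMD1, a proteasome subunit 100.2 kb away, rose by 0.37 ± 0.08 at 96 h (SE, edgeR adjusted p = 0.0108) and by 0.64 ± 0.08 at 48 h (adjusted p = 0.00128), with every gonadotropin animal above every vehicle animal. Its call at 96 h was lost under upper-quartile scaling (0.0716).

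ARMC9 rose by 0.43 ± 0.13 at 96 h (SE, edgeR adjusted p = 0.0491) and by 0.53 ± 0.14 at 48 h (adjusted p = 0.0344). The call at 96 h was lost without any 1 animal but TP16 (adjusted p 0.0556 to 0.167), and that at 48 h without any 1 of TP07, TP08, TP10, TP11 and TP12 (0.0619 to 0.107). Upper-quartile scaling ended both calls (0.145 at 96 h, 0.0784 at 48 h), as did omission of both animals over 20 months (0.198 and 0.235). At 96 h the call was also lost with exactTest (0.122), a mean count of at least 50 (0.056), only the groups compared (0.0936), age as a covariate (0.121) and age class as a block (0.295). CAB39 fell by 0.42 ± 0.11 at 96 h (adjusted p = 0.0245), a call lost without any 1 of TP07, TP11, TP15 and TP17 (0.054 to 0.107), without both animals over 20 months (0.108), with age as a covariate (0.0708) and with age class as a block (0.2).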

How the data were processed

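The deposited table gives raw, unscaled counts per locus for 10 libraries, each from its own animal, with the log2 fold changes and adjusted p-values (FDR) of the authors' edgeR exactTest beside them. Exon positions on rheMac8 came from the deposited transcript models. A second deposited table was not used. The submitters' processing notes name HTSeq 0.6.1p1, edgeR and Cufflinks 2.2.1, and also Bowtie2 2.2.8, TopHat2 2.1.1 and cutadapt 1.9.1. Their roles and settings, the strand setting of the counting included, are not given in the sources used here. The contig names of the transcript models were matched to chromosomes by shared gene symbols (186 of 187 symbols for chromosome 18, 454 of 454 for chromosome 12) in the RefSeq gene table of assembly T2T-MMU8v2.0, whose coordinates were not used.

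In R 4.3.3, edgeR 4.0.16 fitted the counts (TMM scaling, filterByExpr, robust glmQLFit and glmQLFTest, all 10 libraries, Benjamini-Hochberg adjustment over 26813 loci at 0.05). No locus failed the filter. The biological coefficient of variation was 0.259. SE come from the quasi-likelihood F statistic, and CPM values are TMM-scaled. The script was tested on simulated data. Replicates of a group differed by 15.8 to 49.6 chi-square per degree of freedom, so each library counted as 1 replicate. A count of 3, used as the floor, is at most 0.137 CPM. Floors and intervals cover counting error only. Tables and plots were made in Python 3.11.15 (matplotlib 3.10.9, scipy 1.17.1, numpy 2.4.6, pandas 2.3.3).

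Symbols came from the deposited table for 13921 loci and by gene ID for 330. The other loci were unnamed (8161), named by an identifier only (3171) or joined from several genes (1230). Of several loci with 1 symbol, the most counted was used. MRO, GPR55 and the 11 gene lists were chosen with earlier results of these data known. Besides MRO and GPR55, named genes were all measured maestro family genes and receptors, the 3 members of each other list (enzymes and transporters, G12/13 and Gq signalling, and markers of Leydig, Sertoli, macrophage, lymphocyte, peritubular, endothelial and germ cells) with the smallest p in each comparison, the 10 symbols nearest in profile (log2 CPM with a prior count of 2) and the 3 nearest loci on each side. A gene that the rule names is not reported here. DDHD1 is outside this rule and was named after its values were seen. Alternatives were RLE and upper-quartile scaling, no filter, a mean count of at least 50, only the groups compared, age as covariate or block, no animals over 20 months, summed loci, exactTest, DESeq2 1.42.0, and omission of each animal.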

Additional observations from a re-analysis of the deposited data

Results flagged for a closer look

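Among the 84 groups of 4 values examined at 96 h, 3 held a value far from the rest of its group, and chance gives about 1 in 20. The log2 CPM of ACTA2, smooth muscle actin, was 5.605 in TP18, which stood apart from the other 3 animals of the 96 h group by 0.871 of the group's range. The log2 CPM of TEK, an endothelial receptor, was 2.712 in TP16, apart by 0.843 of the range. The log2 CPM of SMAD4, a neighbour of MRO, was 7.883 in TP17, apart by 0.88 of the range. MRO, GPR55 and their ratio gave no such value.

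TSPO, a mitochondrial protein of the Leydig list, differed between the gonadotropin groups. It averaged 84.4 ± 6.92 CPM at 96 h (SD, n = 4) and 125 ± 7.03 CPM at 48 h (n = 3), with no overlap. The log2 fold change of 96 h against 48 h was -0.57 (-0.5697, edgeR adjusted p = 0.0157). The call was lost without TP08 (adjusted p = 0.087), TP10 (0.0588) or TP17 (0.0564), without both animals over 20 months (0.0958) and with age class as a block (0.0682).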

How the results depend on the processing

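No paired analysis was possible because the groups share no replicate number, and the labels pair no animals. The 48 h and vehicle animals match in age class, and with age class as a block 3227 loci were called at 48 h against vehicle. MRO and GPR55 were higher in both gonadotropin groups than in vehicle under all alternatives run. Of 126 alternative values for them, 121 kept their direction and side, 3 moved, 1 passed the threshold and 1 reversed. These values include the comparisons with vehicle by which the genes were chosen, so no support is read from the count. The value that passed (MRO with DESeq2) and the value that reversed (GPR55 without TP10) belong to 96 h against 48 h. Without both animals over 20 months, the 48 h against vehicle difference was 2.51 for MRO and 2.47 for GPR55 (log2). Leaving out 1 animal gave 2.73 (without TP08) to 3.79 for GPR55 at 48 h against vehicle. DESeq2 gave 0.77 for MRO at 96 h against 48 h. For GPR55 at 96 h against 48 h, leaving out 1 animal gave -0.12 (without TP10) to 0.94 (without TP08). The ratio of MRO to GPR55 gave 0.07 to 0.59 with p from 0.2 to 0.933.

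At 96 h against vehicle 4684 loci were called, and 3071 with age as a covariate, 1762 with age class as a block, 1940 without both animals over 20 months and 2210 to 4685 with 1 animal left out. At 48 h against vehicle 3273 were called, and 850 without both animals over 20 months, 5079 with DESeq2 and 1564 to 3465 with 1 animal left out. At 96 h against 48 h 286 were called, and 95 with age as a covariate, 178 with age class as a block, 3 without both animals over 20 months, 843 with exactTest, 1827 with DESeq2 and 2 to 344 with 1 animal left out. At 96 h against 48 h, 2 loci were called without TP08, 5 without TP17, 9 without TP10, 106 without TP18, 174 without TP15 and 186 without TP12. At 96 h against vehicle the count was 3086 without TP09, 2798 without TP17, 2319 without TP11 and 2210 without TP07. At 48 h against vehicle it was 1564 without TP08, 1767 without TP09, 2014 without TP11 and 2084 without TP12.

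Upper-quartile scaling shifted the median log2 difference of all loci by -0.15 at 96 h and -0.13 at 48 h. It gave 1687 higher and 3532 lower loci at 96 h, where TMM gave 2836 and 1848, and 1392 higher and 1732 lower at 48 h, where TMM gave 2288 and 985. MRO and GPR55 stood 3.58 and 3.53 above vehicle at 96 h and 2.82 and 3.33 above it at 48 h under that scaling. With a prior count of 0.5, 9 of the 10 genes nearest MRO and all 10 nearest GPR55 were kept, and with Pearson correlation 1 and 2 were. The low counts of GPR55 in vehicle limit the precision of its ratio. The cause of these shifts was not tested.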
